A study of Mus musculus with 4 samples.

Results

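The 10 genes described here encode precursors of hippocampal neuropeptides. Sst, Npy, Vip and Cck encode peptides best known from interneurons, Penk and Pdyn the opioid precursors, Tac1 and Tac2 the tachykinin precursors, and Crh and Adcyap1 the stress-related peptides CRH and PACAP. They were taken by gene name from a deposited table of 29300 genes. All 10 passed the filter on low counts, as did 17144 genes in all. The study compared the hippocampus of 2 control mice with that of 2 mice of a model of perioperative neurocognitive disorder (PND). The animals were wild-type C57BL/6 males, 7 to 8 months of age, and all of them received isoflurane anesthesia and the analgesic tramadol. A tibia was fractured surgically in the PND mice, while the control mice were sham animals without surgery. Hippocampal tissue was collected on day 1 after the operation, and poly(A) RNA was sequenced as paired-end reads, with reads counted per gene.

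Neuropeptides are made as larger precursors, cut and trimmed in the secretory pathway, stored in dense-core vesicles and released during sustained firing to act on G protein-coupled receptors. In the hippocampus, somatostatin, NPY, VIP and cholecystokinin mark different classes of GABAergic interneurons, while dynorphin and enkephalin are also made by granule cells and other excitatory neurons. Transcription of several of these genes is known to respond to cAMP and calcium through CREB, which binds the cAMP response element (CRE).

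Library totals ran from 15763432 to 18573386 counts. Values are given as CPM, the counts of each mouse scaled by TMM to a common library size, and the TMM factors ran from 0.982 to 1.02. Control and PND mice were compared with edgeR's quasi-likelihood test, two-sided, with Benjamini-Hochberg adjustment over all 17144 genes, and a gene passed at an adjusted p under 0.05. The 8 marker genes of hippocampal excitatory neurons (among them Prox1, Wfs1 and Slc17a7) summed to 2604 and 2485 CPM in the control mice and 2084 and 1960 CPM in the PND mice. Most of this sum was Slc17a7 (1708, 1669, 1303 and 1283 CPM in the same order), and the 8 genes did not share one direction: Slc17a7, Fibcd1 and Wfs1 passed the test as lower and Neurod6 as higher. None of these passed by the same test after removal of the length and GC trend described below. Their log2 fold changes were then -0.15, -0.35, -0.44 and 0.13 (adjusted p = 0.273, 0.0589, 0.0995 and 0.621). Control mouse 1 stood apart in 6 choroid plexus genes, which summed to 127 CPM there, to 5407 CPM in control mouse 2, and to 2031 and 3452 CPM in the PND mice. PND mouse 2 was lowest in 3 oligodendrocyte genes, with 2973 CPM against 4147 to 4778 CPM in the other mice. Hypothalamic marker genes, from a region rich in several of these peptides, summed to between 1.75 and 2.82 CPM. In bulk tissue, fewer cells of a type and less RNA per cell cannot be told apart.

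Sst and Cck, the 2 most abundant precursor transcripts, were lower in PND mice, to 0.72 and 0.74 times the control level, and no precursor transcript passed as higher. Thus 2 of the 10 genes passed as lower, where 12.8% of all genes tested passed as lower, and 0 of the 10 passed as higher, where 13.1% of all genes did. At an unadjusted p under 0.05 there was 1 higher gene, Adcyap1, and DESeq2, by which 23.0% of all genes passed, also called Sst and Cck lower and 0 of the 10 higher. The calls depended on single mice: without control mouse 1 none of the 10 passed (19.6% of all genes did), without PND mouse 2 only Cck did (16.4% of all genes), and without PND mouse 1, 4 did (22.9% of all genes). Both genes kept a negative log2 fold change in each of these fits, from -0.68 to -0.30 for Sst and from -0.55 to -0.32 for Cck. Control mouse 1 was low in choroid plexus genes and PND mouse 2 in oligodendrocyte genes, and the part of these cells in the result was not tested. When the fold was also required to reach 1.5 or to be 0.67 or less, none of the 10 passed, against 9.01% of all genes. The median log2 fold change of the 10 genes was -0.05, and that of all genes tested was 0.01.

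**Figure D1:**
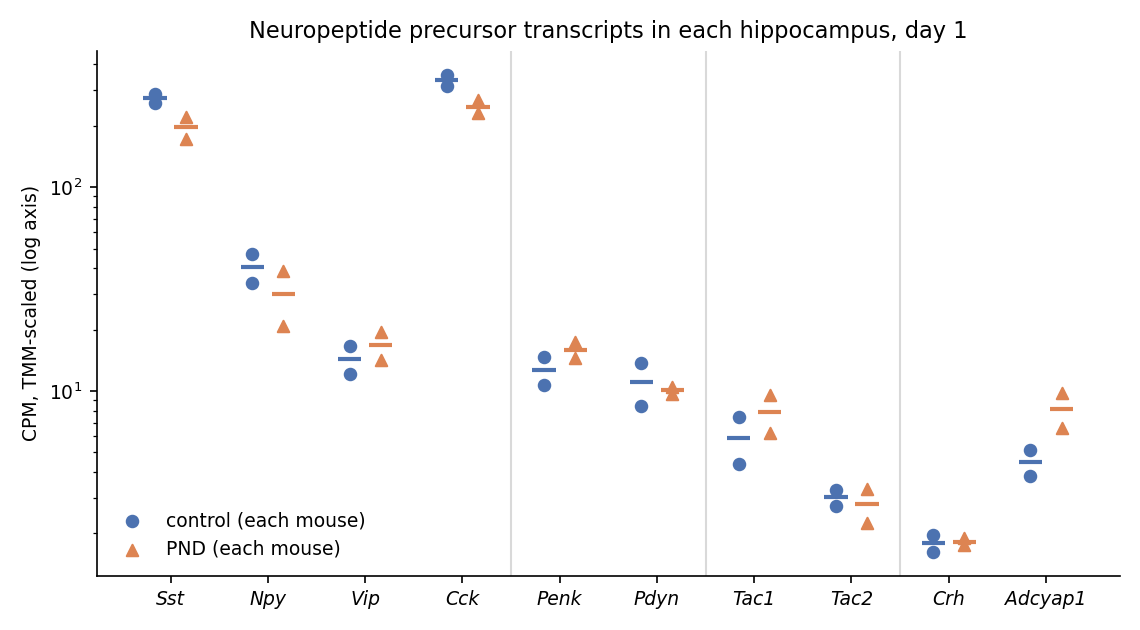
Level of each precursor transcript in each mouse, in TMM-scaled CPM on a log axis; circles are control mice, triangles PND mice, and bars the group means (n = 2 mice per group). Both PND mice sit below both control mice for Sst (221 and 172 against 288 and 258 CPM) and Cck, and above them for Adcyap1, orders that 32.2% and 33.2% of all tested genes show, and the groups overlap for the other genes.

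Across all genes the fold change moved with the GC content of the transcript, and these 10 genes moved with it too. The log2 fold change and the GC content had a Spearman correlation of -0.81 over the 10 genes and of -0.63 over the 17120 tested genes with a GC content, given as a description, since genes of the same libraries are not independent. The genes with the lowest GC content, Vip (38.7%), Adcyap1 (42.8%) and Tac1 (42.8%), had positive log2 fold changes. Those with the highest, Cck (56.9%) and Sst (56.0%), had negative ones. A second set of values is therefore given below, in which each library's smooth trend with transcript length and GC content was removed before the same test. In that fit none of the 10 genes passed, as against 2.42% of all genes in either direction (0.689% higher and 1.73% lower), every 95% interval included 0, and the correlation over the 10 genes was -0.30. Whether the trend arises from the libraries or from the tissue was not tested.

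**Figure D2:**
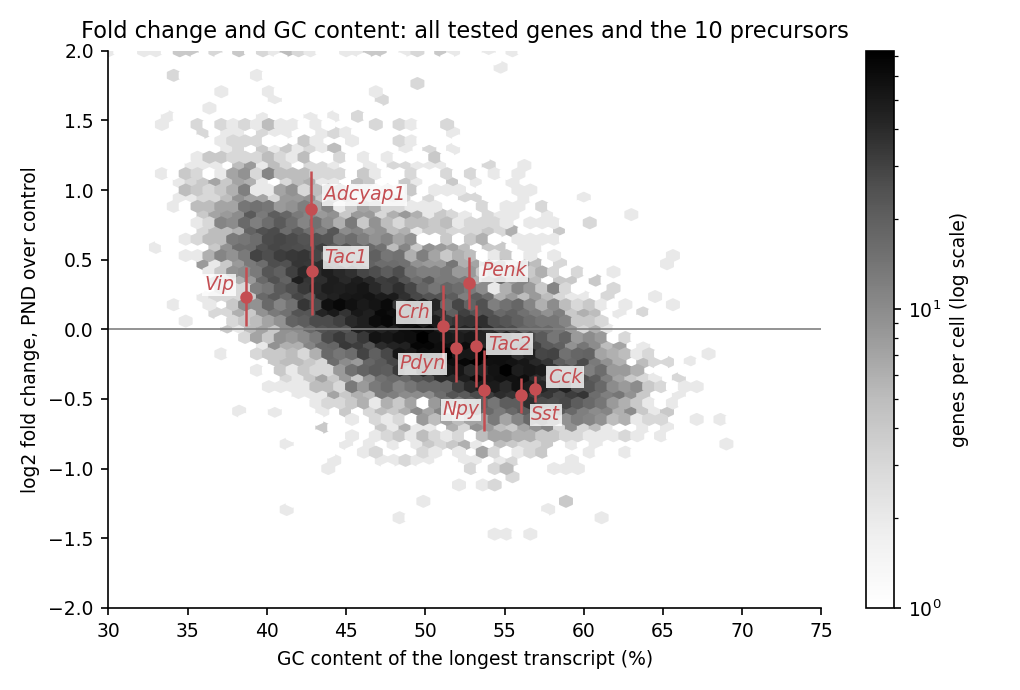
Log2 fold change of PND over control against the GC content of the longest transcript (%), with the grey cells showing the number of tested genes on a log scale and the red points the 10 precursor genes with their standard errors; genes beyond the vertical axis are drawn at its edge. Most red points lie within the grey band, with Vip at its lower side and Adcyap1 and Penk at its upper side for their GC content.

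Sst encodes somatostatin, an inhibitory peptide of interneurons that contact the distal dendrites of pyramidal cells (mm10 chromosome 16, 23889581 to 23890844, minus strand, 2 exons). It measured 288 and 258 CPM in the control mice and 221 and 172 CPM in the PND mice, from 2897 to 4960 counts. The lower control mouse was above the higher PND mouse, so the groups did not overlap, an order that 32.2% of all genes tested had. Sst fell by 0.47 on the log2 scale (SE 0.12, 95% interval -0.77 to -0.18), which passed (edgeR quasi-likelihood test, Benjamini-Hochberg adjusted p = 0.0348). With the length and GC trend removed, its log2 fold change was -0.30 (95% interval -0.61 to 0.01, adjusted p = 0.228). Without control mouse 1, which stood apart in choroid plexus genes, it was -0.40 and did not pass (adjusted p = 0.0819). It did not pass without PND mouse 2 (-0.30, adjusted p = 0.0529) or without the filter on low counts (-0.48, adjusted p = 0.0953) either. Over all alternatives the adjusted p of Sst ran from 0.000623, given by DESeq2, to 0.228.

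Cck encodes cholecystokinin, made by a class of basket cells and, in mice, also by pyramidal cells (chromosome 9, 121489824 to 121495694, minus strand). Its level was 357 and 313 CPM in the control mice and 267 and 230 CPM in the PND mice, from 3889 to 6144 counts. Both PND mice again lay below both control mice. Cck fell by 0.43 on the log2 scale (SE 0.10, 95% interval -0.66 to -0.20; edgeR quasi-likelihood test, Benjamini-Hochberg adjusted p = 0.0215). With the length and GC trend removed it was at -0.23 (95% interval -0.47 to 0.02, adjusted p = 0.259), and without control mouse 1 at -0.34 (adjusted p = 0.0558). Without the filter on low counts it was at -0.44 (adjusted p = 0.0616). Its adjusted p over all alternatives ran from 0.000178 to 0.259.

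Npy encodes neuropeptide Y, found in neurogliaform, ivy and hilar interneurons, often together with somatostatin (chromosome 6, 49822710 to 49829507, plus strand). It measured 47.1 and 33.8 CPM in the control mice and 39.0 and 20.7 CPM in the PND mice. PND mouse 1 lay between the 2 control mice, and PND mouse 2 was the lowest of the 4. The log2 fold change was -0.44 with a wide 95% interval of -1.14 to 0.27 and did not pass (edgeR quasi-likelihood test, Benjamini-Hochberg adjusted p = 0.315). This value depended on the mouse left out, most of all on the PND mice. It was -0.04 without PND mouse 2 and -0.98 without PND mouse 1. Without control mouse 1 it was -0.19, and without control mouse 2 it was -0.67. PND mouse 2 was also lowest in the immediate early gene Egr1, with 87.2 CPM against 124 to 140 CPM in the other mice, and the part of neuronal activity in the Npy value was not tested.

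Vip encodes vasoactive intestinal peptide, of interneurons that largely contact other interneurons (chromosome 10, 5639218 to 5647617, plus strand). Its level was 12.1 and 16.6 CPM in the control mice and 14.2 and 19.6 CPM in the PND mice, so that the groups interleaved. PND over control gave a log2 fold change of 0.23 (95% interval -0.27 to 0.74; edgeR quasi-likelihood test, Benjamini-Hochberg adjusted p = 0.458). With the length and GC trend removed its sign turned, to -0.40 (95% interval -0.91 to 0.10, adjusted p = 0.317). Vip had the lowest GC content of the 10 genes, and 3.62% of all tested genes had a lower one.

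The promoters of these genes are shown because Sst and Cck were lower together, Adcyap1 lay on the other side, and Vip turned with the correction. Windows from 250 bases before to 50 bases after each annotated start, from RefSeq on GRCm38.p6, held 8 of the 10 genes. They were searched on both strands for the full CRE, TGACGTCA, and for its core TGACG, which the full CRE holds once on each strand. The 120 bases before the start are given 5′ to 3′ on the strand of the gene, with matches to the core or the full element in capitals. They span chr16:23890845-23890964 for Sst (minus strand), chr9:121495695-121495814 for Cck (minus strand), chr10:5639098-5639217 for Vip (plus strand) and chr17:93198897-93199016 for Adcyap1 (plus strand).
Sst: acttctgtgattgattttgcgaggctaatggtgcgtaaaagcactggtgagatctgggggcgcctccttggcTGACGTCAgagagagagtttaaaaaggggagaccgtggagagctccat
Cck: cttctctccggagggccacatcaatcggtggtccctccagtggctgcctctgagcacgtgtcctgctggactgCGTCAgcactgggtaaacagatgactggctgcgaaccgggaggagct
Vip: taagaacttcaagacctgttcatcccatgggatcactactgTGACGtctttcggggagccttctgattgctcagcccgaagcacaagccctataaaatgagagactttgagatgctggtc
Adcyap1: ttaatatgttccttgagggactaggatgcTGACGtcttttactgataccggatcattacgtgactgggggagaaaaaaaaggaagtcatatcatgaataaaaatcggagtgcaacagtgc

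The full CRE was present in the window of 1 of the 8 genes, Sst, where its first base lay 48 bases before the start, and in 1.79% of 32851 RefSeq windows. The core was found in 5 of the 8, Sst, Cck, Vip, Adcyap1 and Tac1, and in 20.8% of all windows. Its place before the start was 47 bases in Cck, 79 in Vip, 91 in Adcyap1, and 43 and 197 in Tac1. From another annotated start of Adcyap1 the core lay 242 bases away. The 8 genes had 10 windows in all. These 5 genes comprise the lower Sst and Cck and 3 genes with positive log2 fold changes. The windows of Npy, Pdyn and Tac2 held neither sequence, and Penk and Crh had no window. A match describes the letters in the window and no binding.

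Penk encodes proenkephalin, the source of the enkephalins (chromosome 4, 4133531 to 4138819, minus strand). It was at 14.6 and 10.7 CPM in the control mice and 14.5 and 17.4 CPM in the PND mice. Control mouse 1 and PND mouse 1 were nearly equal, and the groups overlapped. Its log2 fold change was 0.34 (95% interval -0.11 to 0.78; edgeR quasi-likelihood test, Benjamini-Hochberg adjusted p = 0.232). Removing the length and GC trend moved it further from 0, to 0.44 (95% interval -0.01 to 0.90, adjusted p = 0.233). Its value was 0.12 without control mouse 2, 0.21 without PND mouse 2 and 0.57 without control mouse 1, and did not pass in any of these. Its exons overlap those of A830012C17Rik on the other strand, and 5.53% of its 75 nt windows are shared with another gene. The use of strand in counting is not given in the sources used here, so reads of the pair cannot be told apart.

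Pdyn encodes prodynorphin, the precursor of the dynorphins, made in the hippocampus mainly by granule cells (chromosome 2, 129686565 to 129699844, minus strand). The control mice were at 13.8 and 8.43 CPM and the PND mice between them, at 10.4 and 9.72 CPM. A log2 fold change of -0.14 resulted (95% interval -0.72 to 0.45; edgeR quasi-likelihood test, Benjamini-Hochberg adjusted p = 0.719), and -0.05 with the trend removed. Its sign depended on control mouse 1, without which it was 0.25 (adjusted p within 0.158 to 0.960 over the alternatives).

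Tac1 encodes the precursor of substance P and neurokinin A (chromosome 6, 7554879 to 7565834, plus strand). It measured 7.43 and 4.38 CPM in the control mice and 9.53 and 6.22 CPM in the PND mice, and the groups overlapped. The log2 fold change of 0.42 (95% interval -0.35 to 1.18; edgeR quasi-likelihood test, Benjamini-Hochberg adjusted p = 0.378) came to 0.07 with the length and GC trend removed. Leaving out 1 mouse gave 0.07 (without PND mouse 1), 0.07 (without control mouse 2), 0.70 (without PND mouse 2) and 0.84 (without control mouse 1), none of which passed. Tac2, the precursor of neurokinin B (chromosome 10, 127724478 to 127731768, plus strand), was low, at 2.73 and 3.28 CPM in the control mice and 3.32 and 2.25 CPM in the PND mice. The PND mice thus enclosed the control mice. Tac2 had a log2 fold change of -0.12 (95% interval -0.82 to 0.59; edgeR quasi-likelihood test, Benjamini-Hochberg adjusted p = 0.804), from 38 to 60 counts per mouse.

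Crh encodes corticotropin-releasing hormone, which in the hippocampus is made by interneurons (chromosome 3, 19693401 to 19695396, minus strand). It had the fewest counts, 28 and 36 (1.63 and 1.97 CPM) in control mice against 28 and 32 (1.76 and 1.90 CPM) in PND mice. The PND mice lay between the control mice, with a log2 fold change of 0.02. Its 95% interval of -0.70 to 0.74 is wide in both directions at this depth, so that only a larger change could have been detected (edgeR quasi-likelihood test, Benjamini-Hochberg adjusted p = 0.968).

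Adcyap1 encodes PACAP, a peptide of the VIP family that raises cAMP (chromosome 17, 93199422 to 93205485, plus strand; the RefSeq start used for its promoter lies before the start in the deposited table). It measured 3.83 and 5.14 CPM in the control mice and 6.58 and 9.78 CPM in the PND mice, from 66 to 165 counts. Both PND mice were above both control mice, as in 33.2% of all genes tested, and the mean was 1.82 times that of the controls. The log2 fold change of 0.87 was the farthest from 0 among the 10 genes (SE 0.27, 95% interval 0.22 to 1.51), with an adjusted p just over the threshold (edgeR quasi-likelihood test, Benjamini-Hochberg adjusted p = 0.0578). With the length and GC trend removed it was 0.50 (95% interval -0.11 to 1.12, adjusted p = 0.304). Without PND mouse 1 it was 1.10 and passed (adjusted p = 0.0185), as it did with a minimum count of 30 (0.88, adjusted p = 0.0485). Without PND mouse 2 it was 0.55 (adjusted p = 0.234) and without control mouse 1 it was 0.67 (adjusted p = 0.173), and over the alternatives its adjusted p ran from 0.0164 to 0.304.

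**Figure D3:**
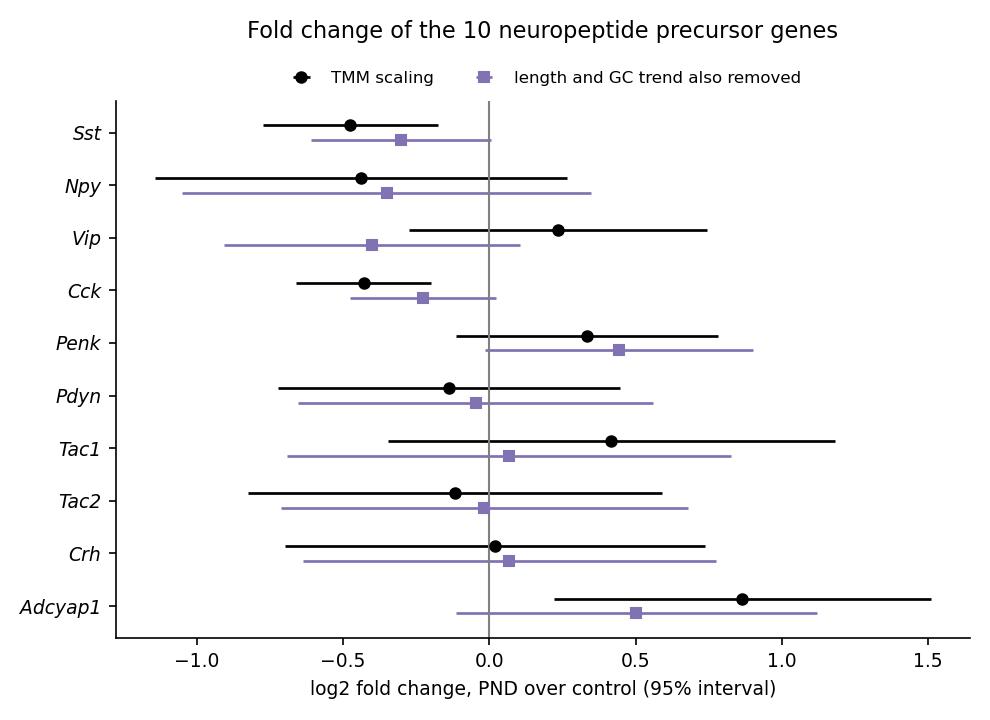
Log2 fold change of PND over control for each precursor gene with its 95% interval, from the TMM-scaled fit (black circles) and after removal of the length and GC trend (purple squares). The black intervals of Sst, Cck and Adcyap1 leave out 0, all purple intervals include it, and Vip changes side, from 0.23 to -0.40.

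Levels of different genes were compared per length, as CPM divided by the exon length in kilobases (RPKM), averaged over the 4 mice. Sst had the highest level (326 ± 69.5 RPKM, SD, n = 4), followed by Cck (223 ± 42.0) and Npy (62.1 ± 19.6). Each SD over the 4 mice also holds the difference between the groups. Sst was at 379 ± 29.4 RPKM in control and 273 ± 48.7 RPKM in PND mice (n = 2 each). Cck was at 256 ± 23.9 and 191 ± 19.7 RPKM. Penk was at 8.76 ± 1.67 RPKM, Vip at 4.59 ± 0.94 and Pdyn at 3.66 ± 0.79. The lowest levels were those of Tac2 (2.10 ± 0.37 RPKM), Tac1 (2.03 ± 0.64), Adcyap1 (1.68 ± 0.68) and Crh (1.37 ± 0.12). The 4-mouse ranges of neighbours in this order overlapped between Sst and Cck, between Vip and Pdyn, and between each pair of neighbours from Tac2 to Crh, while Npy and Penk were separate from both of their neighbours and Pdyn from Tac2. With the length of the longest transcript in place of all exons, Cck (365 RPKM) came above Sst (326 RPKM) and Tac1 (3.49 RPKM) above Tac2 (3.40 RPKM). The order of the lowest genes over all exons also differed by group. Crh (1.36 RPKM) was above Adcyap1 (1.19 RPKM) in the control means. Tac1 (2.32 RPKM) and Adcyap1 (2.17 RPKM) were above Tac2 (2.02 RPKM) in the PND means.

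Differences between mice of the same group varied widely among the precursors. The coefficient of variation within the control pair ran from 7.77% for Sst and 9.31% for Cck to 36.6% for Tac1, and within the PND pair from 4.86% for Pdyn to 43.2% for Npy. Sst, Npy, Cck, Pdyn and Tac1 were higher in mouse 1 than in mouse 2 in both groups. Vip, Crh and Adcyap1 were higher in mouse 2 in both groups, and Penk and Tac2 differed in order. Sst and Cck were thus the least variable of the 10 transcripts within the control pair, but not within the PND pair.

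Of the 22 genes for the receptors of these peptides and the CRH binding protein, 19 were tested. None passed as higher and 2 passed as lower, Sstr3 and Sstr4, both receptors of somatostatin, where 13.1% of all genes passed as higher and 12.8% as lower. No positive value had an unadjusted p under 0.05. The median log2 fold change of the 19 was -0.21, and 16 were negative, as were 8411 of the 17144 genes tested. With the length and GC trend removed this median was -0.13, and that of all genes was -0.03. Without control mouse 1, 4 of the 19 passed as lower, against 19.6% of all genes in either direction. Sstr3, a receptor of neuronal primary cilia, measured 46.2 and 44.8 CPM in the control mice and 34.2 and 29.9 CPM in the PND mice, without overlap. It fell by 0.51 on the log2 scale (SE 0.10; edgeR quasi-likelihood test, Benjamini-Hochberg adjusted p = 0.0128). Sstr4 measured 40.5 and 33.6 CPM against 22.5 and 25.2 CPM, also without overlap. It fell by 0.63 (SE 0.12, adjusted p = 0.0143 by the same test), the farthest from 0 among the negative values of the 19. With the length and GC trend removed, neither passed (-0.27 with an adjusted p of 0.215 for Sstr3 and -0.32 with 0.220 for Sstr4, the highest over the alternatives for either).

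The most abundant receptor gene of each of the other peptides did not pass. Adcyap1r1, the PACAP receptor, was at 244 and 271 CPM in the control mice and 225 and 215 CPM in the PND mice, with both PND mice lower while both were higher in Adcyap1 itself. Its log2 fold change was -0.23 (edgeR quasi-likelihood test, Benjamini-Hochberg adjusted p = 0.0605), which passed as lower by DESeq2 (adjusted p = 0.0273) and without control mouse 1 (-0.31, adjusted p = 0.0367), in a range of 0.0273 to 0.336 over the alternatives. Cckbr, the main brain receptor of cholecystokinin, was at -0.34 (adjusted p = 0.0928) and Crhr1, a receptor of CRH, at -0.40 (adjusted p = 0.101). Vipr1 was at -0.21, Npy2r at -0.04 and the delta opioid receptor Oprd1 at -0.14. With the length and GC trend removed, Cckbr was at -0.12, Crhr1 at -0.13, Adcyap1r1 at -0.13 and Vipr1 at -0.02. Npy2r moved away from 0 in that fit, to -0.42 (95% interval -0.62 to -0.21, adjusted p = 0.0593, in a range of 0.0176 to 0.980 over the alternatives). The kappa opioid receptor Oprk1, at 0.66 with 14 to 37 counts, and the tachykinin receptors Tacr1 and Tacr3, at 0.01 and 0.16, had positive values.

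The 20 genes of prohormone processing and dense-core vesicles held 8 that passed, 4 higher and 4 lower, where 26.0% of all genes passed in either direction. The largest rise was in Syt4, a synaptotagmin of dense-core vesicles, from 45.8 and 42.7 CPM in the control mice to 97.1 and 104 CPM in the PND mice (log2 fold change 1.18, SE 0.08; edgeR quasi-likelihood test, Benjamini-Hochberg adjusted p = 0.00393). Scg3, a granin that takes part in sorting cargo into these vesicles, rose from 124 and 114 CPM to 233 and 217 CPM (log2 fold change 0.91, SE 0.07, adjusted p = 0.0042). Ptprn2, a transmembrane protein of the vesicles, fell from 340 and 273 CPM to 177 and 194 CPM (log2 fold change -0.73, SE 0.11, adjusted p = 0.00701). The groups did not overlap in these genes. Of the 20 genes, both PND mice were above both control mice in 5 and below them in 13. Over all tested genes, 33.2% and 32.2% showed these orders. Syt4, Scg3 and Ptprn2 were also the 3 of the list that passed with the length and GC trend removed, where 2.42% of all genes did (0.69, 0.76 and -0.82, with adjusted p of 0.0237, 0.0237 and 0.0284).

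Pcsk1n, which encodes proSAAS, a precursor that inhibits the convertase PCSK1, fell from 669 and 679 CPM to 453 and 410 CPM (log2 fold change -0.64, SE 0.07; edgeR quasi-likelihood test, Benjamini-Hochberg adjusted p = 0.00446), and was at -0.39 with the trend removed (adjusted p = 0.0563). Ptprn, the relative of Ptprn2, fell by 0.47 on the log2 scale (adjusted p = 0.00464), and was at -0.17 with the trend removed (adjusted p = 0.195). Cpe, the carboxypeptidase that trims most neuropeptides, was the most abundant of the list at 2405 and 2430 CPM in the control mice and 2354 and 2111 CPM in the PND mice, and did not pass (log2 fold change -0.11, adjusted p = 0.288). The other 3 genes that passed were Scg2 and Ica1, higher by 0.37 and 0.35, and Vgf, at -0.54; they were named after their values were seen. The median of the list was -0.10. Syt4, Pcsk1n and Ptprn overlap exons of a gene on the other strand, whose reads cannot be told apart from theirs.

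**Figure D4:**
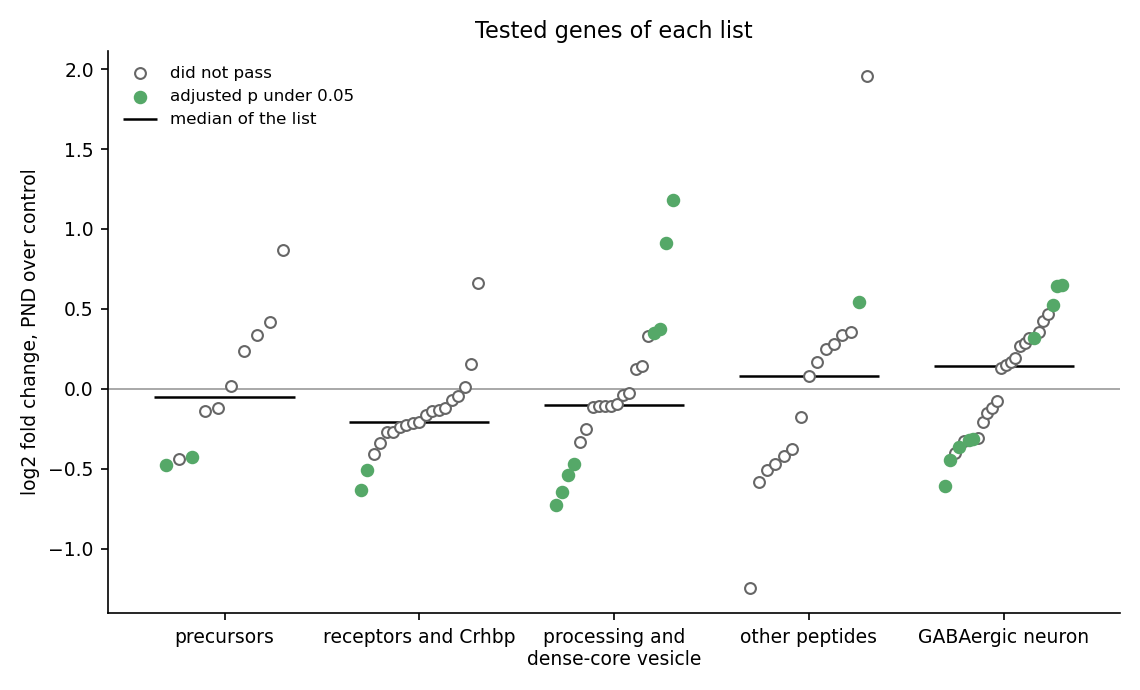
Log2 fold change of PND over control for every tested gene of 5 lists, in order within each list; filled points passed (edgeR adjusted p under 0.05) and the lines are the list medians. The receptor list has 16 of 19 genes below 0, the precursor median lies at -0.05, and the processing list spreads from -0.73 to 1.18.

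Among 27 other neuropeptide precursor genes in the table, 15 were tested and 1 passed, against 26.0% of all genes in either direction. Nucb2, the precursor of nesfatin-1, measured 9.40 and 8.75 CPM in the control mice and 12.7 and 13.7 CPM in the PND mice (log2 fold change 0.54, SE 0.14; edgeR quasi-likelihood test, Benjamini-Hochberg adjusted p = 0.0353), and was at 0.13 with the trend removed (adjusted p = 0.637). The fold was about as large by DESeq2 (0.53, adjusted p = 0.0866) and when any of the 4 mice was left out (0.49 to 0.59, adjusted p = 0.0617 to 0.146), but did not pass there. Without PND mouse 1, 19 genes of the list were tested and 2 passed, where 22.9% of all genes did. Nxph1 and Grp, the most abundant besides, had log2 fold changes of -0.18 and -0.37 and did not pass (adjusted p = 0.260 and 0.0581). The median of the 15 was 0.08.

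Genes of GABAergic neurons, which make most of the interneuron peptides, did not share one direction. Of 27, 26 were tested, with 4 higher and 5 lower and a median of 0.14, where 13.1% of all genes passed as higher and 12.8% as lower. Pvalb, the marker of parvalbumin interneurons, measured 15.1 and 12.8 CPM in the control mice and 23.1 and 20.7 CPM in the PND mice (log2 fold change 0.65, edgeR quasi-likelihood test, Benjamini-Hochberg adjusted p = 0.0168). With the trend removed it was about as large, 0.61 (95% interval 0.28 to 0.93, adjusted p = 0.0706). Slc32a1, the vesicular GABA transporter, fell by 0.44 on the log2 scale (adjusted p = 0.0116), and Nos1, the neuronal nitric oxide synthase of a further set of interneurons, by 0.36 (adjusted p = 0.0154). Erbb4 and Ndnf rose by 0.52 and 0.64 (adjusted p = 0.00784 and 0.0150). With the trend removed, the values were -0.10 for Slc32a1 (adjusted p = 0.527), -0.22 for Nos1 (0.131), 0.01 for Erbb4 (0.960) and 0.19 for Ndnf (0.399), and without control mouse 2, 2 of the 26 passed, where the share of all genes was 13.5%. Slc32a1 and Nos1 overlap genes on the other strand, and 23.0% of the 75 nt windows of Slc32a1 are shared.

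Gad1, which encodes the main GABA-synthesizing enzyme, was at 389 and 401 CPM in the control mice and 404 and 344 CPM in the PND mice and did not pass (log2 fold change -0.08; edgeR quasi-likelihood test, Benjamini-Hochberg adjusted p = 0.535). Cnr1, the cannabinoid receptor of CCK basket cells, was at 0.17 and did not pass either (adjusted p = 0.0747). The 4 markers Gad1, Gad2, Slc32a1 and Lhx6 together summed to 641 and 643 CPM in the control mice and 683 and 584 CPM in the PND mice, so that the PND mice enclosed the control mice in this sum. Most of the sum was Gad1, and its other members differed in direction, since Gad2 passed as higher (0.32, adjusted p = 0.0439, named after its values were seen) and Slc32a1 as lower. Neither passed with the trend removed, with Gad2 at 0.02 (adjusted p = 0.925) and Slc32a1 at -0.10 (adjusted p = 0.527). With the trend removed, 1 of the 26 passed, Kit at -0.39 (adjusted p = 0.0472), named after its values were seen, where 2.42% of all genes passed.

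Of 21 activity-regulated genes, 1 passed in each direction, against 26.0% of all genes in either. The direction depended on the mouse left out. Without PND mouse 1, 8 passed, 1 higher and 7 lower (median -0.35, 22.9% of all genes passed), while without PND mouse 2, 4 passed, all higher (median 0.08, 16.4% of all genes). Without control mouse 2, 1 passed, against 13.5% of all genes. Homer1 rose from 60.4 and 59.5 CPM to 118 and 96.0 CPM (log2 fold change 0.84; edgeR quasi-likelihood test, Benjamini-Hochberg adjusted p = 0.00505), and was at 0.06 with the trend removed (adjusted p = 0.840). Per1, a clock gene that is also induced by CREB, fell by 0.36 (adjusted p = 0.0419), was at -0.07 with the trend removed (adjusted p = 0.714), and did not pass without control mouse 2, PND mouse 1 or PND mouse 2 (adjusted p = 0.152, 0.0507 and 0.105). Jun, Egr3 and Egr1, the most abundant, had log2 fold changes of -0.01, -0.05 and -0.22 and did not pass. Of 28 genes in the table that mark striatum, thalamus, hypothalamus or choroid plexus, 23 were tested and 1 passed, again against 26.0% of all genes. This was the striatal phosphodiesterase gene Pde10a (-0.33, adjusted p = 0.0180, and -0.42 with the trend removed, adjusted p = 0.0425). Its value ran from -0.39 to -0.27 when 1 mouse was left out, and it did not pass in each of those fits. Here too the direction turned with the control mouse left out: without control mouse 1, 6 of 24 passed, all lower (19.6% of all genes passed), and without control mouse 2, 7 of 24, all higher (13.5%). Summed over 9 striatal genes, which mark a region rich in Penk, Pdyn and Tac1, the control mice were at 195 and 241 CPM and the PND mice at 179 and 183 CPM. Both PND mice were thus below both control mice in the striatal sum. The 7 thalamic genes summed to 179 and 171 CPM in the control mice and to 202 and 199 CPM in the PND mice, the opposite order. The PND means of Penk and Tac1 were above their control means, and that of Pdyn was below. The part of neighbouring tissue in these values was not tested.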

How the data were processed

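Hippocampal libraries of 2 control and 2 PND mice were grouped by the treatment label, and each was taken as 1 mouse, since the methods give 2 mice in each group. The authors mapped the reads to mm10 with HISAT and deposited unnormalized read counts per gene; the submitters' processing notes list HISAT2 2.1.0, and Bowtie2 2.2.3, TopHat2 and HTSeq 0.6.0 with no role given. The deposited table further holds the authors' mean signal, fold change ratio, log2 fold change and p-value columns, which were not used. The symbols of 24 genes, turned into dates, were restored by identifier.

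The main test used edgeR 4.0.16 in R 4.3.3 (filterByExpr, minimum count 10; TMM; glmQLFit and glmQLFTest with condition as the only term; Benjamini-Hochberg over 17144 genes), with DESeq2 1.42.0 as an alternative. Intervals cover 95%. Length and GC trends per library were fitted with mgcv 1.9.3 (basis size 8) over 17120 genes on GENCODE M21 transcripts and entered as offsets. RPKM used the union of exons. Library totals are in the report; replicates differed by more than sampling noise (chi-square per degree of freedom 13.4 and 8.45). The procedure was tested on simulated counts. Drawn with gene-wise dispersions, as first done, false calls exceeded their nominal share; the dispersions were then set to their trend, after that outcome was seen, and false calls became few. Error control with 2 mice per group may thus be weaker than nominal, which bears on adjusted p-values near 0.05 such as those of Sst, Nucb2 and Per1.

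The genes and lists were chosen with earlier results of these data known. Named genes are the 10 precursors, the most abundant receptor gene of each peptide and receptors that passed, from the processing, other peptide, GABAergic and activity lists the 3 most abundant and up to 5 that passed, in order of p, and region genes that passed; 1 gene that this rule names is not reported here. Alternatives were other scalings (RLE, library totals), filters (none, minimum count 30), DESeq2, the replicate number as a block, the length and GC correction, an added fold threshold, other lengths and leaving out each mouse. Protein measurements of the study were not analysed here.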

Additional observations from a re-analysis of the deposited data

How the results depend on the processing

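With 2 mice per group and 28 to 60 counts per mouse for Tac2 and Crh, only large differences could pass for the low precursors. Among 120 values of the 10 precursor genes under alternatives, 100 kept direction and side of the threshold, 7 lost the call, 5 gained it and 8 turned sign. Tac2 and Crh had no adjusted p by DESeq2, so their values there count among the 100 by direction alone. Over all genes, 26.0% passed, 9.10% without a filter on low counts, 31.6% at minimum count 30, 26.0% with library totals, 23.0% by DESeq2, 2.42% with the length and GC trend removed, 9.01% with the fold threshold and 13.5% to 22.9% leaving out a mouse. Of the 10, 2 passed; 0 did so without a filter on low counts, with the length and GC trend removed, or with the fold threshold; the number ran from 0 to 4 when 1 mouse was left out (0 without control mouse 1, 1 without PND mouse 2, 4 without PND mouse 1).

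The count was 2 of the receptor list (0 with the trend removed, 1 with the fold threshold, 2 to 4 leaving out a mouse) and 8 of the processing list (5 without filter, 3 with the trend removed, 4 with the fold threshold, 6 to 8 leaving out a mouse). It was 1 of the other peptides (0 without filter, by DESeq2, with the trend removed and with the fold threshold; 0 to 2 leaving out a mouse), and 9 of the GABAergic list (5 without filter, 1 with the trend removed, 3 with the fold threshold, 2 to 9 leaving out a mouse, the 2 without control mouse 2). Of the activity list, 2 passed (1 with library totals, without filter and with the fold threshold, 4 by DESeq2, 0 with the trend removed; 1 to 8, the 8 without PND mouse 1, of which 7 lower, while the 4 without PND mouse 2 were higher), and of the region list 1 (2 with library totals and at minimum count 30, 0 with the fold threshold; 1 to 7, with 6 lower without control mouse 1 and 7 higher without control mouse 2).

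Signs turned, for genes that did not pass, with the trend removed for Vip (-0.40), Oprd1 (0.040), Tacr3 (-0.093), Cnr1 (-0.088), Jun (0.20), Egr3 (0.011) and Egr1 (0.028), with library totals for Npy2r (0.0047) and Jun (0.038), and at minimum count 30 for Jun (0.0092). They also turned when 1 mouse was left out, with values from -0.0097 to 0.48 for Vip, -0.46 to 0.25 for Pdyn, -0.43 to 0.15 for Tac2, -0.11 to 0.16 for Crh, -0.14 to 0.039 for Npy2r, -0.28 to 0.0024 for Oprd1, -0.011 to 1.09 for Oprk1, -0.21 to 0.19 for Tacr1, -0.076 to 0.36 for Tacr3, -0.21 to 0.037 for Gad1, -0.068 to 0.043 for Jun and -0.61 (without PND mouse 1, adjusted p = 0.00494) to 0.085 for Egr1. The causes were not tested. With the longest transcript, levels were 6.17 (Vip), 365 (Cck), 3.49 (Tac1) and 3.40 (Tac2) RPKM. Scaled by library totals, 59.4% of all calls were higher, against 50.5%.

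The labels do not say that a replicate number marks a shared batch, and deviations of same-numbered mice correlated at 0.22 over only 2 pairs, so the numbers were not taken as a pairing. With the replicate block 30.8% of all genes passed, and 4 precursors (Sst, Cck, Npy at -0.48 with an adjusted p of 0.0255, and Adcyap1 at 0.86 with 0.0164), 3 receptors, 10 processing genes, 3 other peptides, 13 GABAergic, 5 activity and 2 region genes did, Adcyap1r1 among the receptors (-0.23, adjusted p = 0.0487). With the block and the length and GC trend removed together, 13.1% of all genes, 5 GABAergic genes and 2 precursors passed, Sst (-0.31, adjusted p = 0.0172) and Cck (-0.23, adjusted p = 0.0246), which did not pass with the trend removed alone (Npy2r then also passed, at -0.42 with an adjusted p of 0.0176); the other values were -0.40 for Vip, 0.045 for Oprd1, -0.096 for Tacr3, -0.088 for Cnr1, 0.20 for Jun and 0.0099 for Egr3.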

Other observations

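Trh, the precursor of thyrotropin-releasing hormone, was noticed for a single mouse. It had 91 counts in PND mouse 2 (5.39 CPM) and 8, 19 and 7 counts in control mouse 1, control mouse 2 and PND mouse 1, so that the groups overlapped. Pomc, the precursor of the melanocortins and beta-endorphin, was counted 27 and 22 times in control mice against 11 and 8 times in PND mice, with a log2 fold change of -1.24 that did not pass (edgeR quasi-likelihood test, Benjamini-Hochberg adjusted p = 0.0697). Both genes were chosen after their values were seen.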
